A study of Mus musculus with 24 samples.

Results

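The 9 genes described here handle iron, and they were followed by RNA-seq in macrophages grown from the bone marrow (BMDMs) of WT and Irg1-/- mice. The members were the iron exporter gene Slc40a1, the uptake genes Tfrc, Slc11a2, Slc11a1 and Lcn2, the storage genes Fth1, Ftl1 and Ncoa4, and the iron sensor gene Ireb2. They were chosen by name, as the rows of the counts table whose Ensembl identifiers carry these symbols in the GENCODE M21 annotation, and not by their values. They made up 9 of the 22165 genes in the table, and all 9 had enough counts to enter the tests. The series held 24 libraries in 8 groups of 3 independent cultures, one group for each combination of 2 genotypes and 4 treatments.

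Cultures came from Irg1-/- mice and from WT C57BL/6N mice, 8 to 20 weeks old, of both sexes and matched for age and sex. Irg1-/- mice lack the enzyme IRG1 (gene symbol Acod1) in all cells, and IRG1 makes the metabolite itaconate from cis-aconitate in LPS-stimulated macrophages. Marrow cells of all groups were differentiated for 7 days with the growth factor M-CSF at 20 ng/mL. Unstimulated cells (Unstim.) received no LPS. LPS, the bacterial cell-wall lipid sensed through TLR4, was given at 100 ng/ml. Non-tolerized cells (LPS 3h) were labelled mock for the first period, then had a medium change, 1 h of rest and 3 h of LPS. LPS 24h cells were harvested directly after 24 h. Tolerized cells (LPS 24h->LPS 3h) had 24 h of LPS, a medium change, 1 h of rest and a further 3 h of LPS. The medium change and rest separate tolerized from LPS 24h cells as well as the added LPS does, so these cannot be told apart in that comparison. The same holds for LPS 3h against unstimulated cells, for which no medium change or rest is recorded. Libraries measured whole cultures, in which fewer cells of a type and less RNA per cell cannot be told apart.

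Macrophages recycle the iron of aged red cells and release it to plasma through ferroportin, the product of Slc40a1 and the only known cellular iron exporter in mammals. Iron enters cells as transferrin-bound iron through the transferrin receptor (Tfrc), and the divalent metal transporters DMT1 (Slc11a2) and NRAMP1 (Slc11a1) move it out of endosomes and phagosomes. Ferritin, a cage of heavy (Fth1) and light (Ftl1) chains, stores it, and the cargo receptor NCOA4 delivers ferritin for breakdown. Lipocalin 2 (Lcn2) binds bacterial siderophores, which withholds iron from microbes. Withdrawal of iron into macrophages is a known feature of inflammation. C57BL/6 mice carry a loss-of-function allele of Slc11a1, so its transcript was measured here in cells that lack working NRAMP1 protein.

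Several of these transcripts are also controlled after transcription. Iron regulatory proteins, among them IRP2 (the product of Ireb2), bind short hairpins named iron-responsive elements (IREs) when iron is scarce. Binding in a 5′ UTR blocks translation and binding in a 3′ UTR protects the mRNA from decay. The transcripts that carry an IRE are therefore shown first, because RNA-seq reads the mRNA level and not the block on translation. A search of GENCODE M21 transcripts on GRCm38 (the mm10 build) looked for a C, a 5-base stem, the loop CAGTGN with a last base other than G, and 5 bases that pair with the stem, with G-U pairs allowed. In the sense strand it found such a hairpin in a UTR of 99 of 11785 coding genes tested (0.84%), in the 5′ UTR of 19 (0.161%) and in the 3′ UTR of 80 (0.679%). Among the members it was found in 4 of 9. Each 30-base window below is printed 5′ to 3′ in the sense of the transcript, and capitals mark the 6-base loop.
Slc40a1, 5′ UTR, chr1:45925464-45925493, minus strand: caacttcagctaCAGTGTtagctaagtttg
Fth1, 5′ UTR, chr19:9982732-9982761, plus strand: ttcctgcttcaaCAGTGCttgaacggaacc
Ftl1, 5′ UTR, chr7:45459778-45459807, minus strand: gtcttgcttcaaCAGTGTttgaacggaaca
Tfrc site A, 3′ UTR, chr16:32631219-32631248, plus strand: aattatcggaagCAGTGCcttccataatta
Tfrc site B, 3′ UTR, chr16:32631598-32631627, plus strand: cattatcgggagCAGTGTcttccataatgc
Tfrc site C, 3′ UTR, chr16:32631663-32631692, plus strand: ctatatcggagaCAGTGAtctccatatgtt
Tfrc site D, 3′ UTR, chr16:32631710-32631739, plus strand: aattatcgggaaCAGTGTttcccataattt

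The exporter and both ferritin chains thus held 1 match each at the 5′ end, and Tfrc held 4 at the 3′ end. The other 5 members (Slc11a1, Slc11a2, Ireb2, Ncoa4 and Lcn2) held no match to these letters in a UTR, which says nothing of other forms of the element. The matches are sequence descriptions, and binding was not measured.

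Libraries held 3927378 to 20430359 counts on genes, with a median of 11539055.5, and the members took 0.834% to 6.28% of them. Values are counts scaled to the library size (CPM) after TMM normalisation. The reads come from the 3′ ends of transcripts and are not divided by length, so levels were compared between libraries for 1 gene at a time. Acod1, the gene deleted in Irg1-/- mice, was at 22837, 28063 and 15643 CPM in the WT LPS 3h cultures and at 26.4, 7.94 and 1.58 CPM in the Irg1-/- ones. The summed level of 8 macrophage markers was 3319 to 9833 CPM in all libraries. The 9 erythroid markers summed to at most 5.28 CPM, all of it Epor in unstimulated Irg1-/- culture 2, and 5 of the 9 had at most 3 counts in every library. B cell, T cell and dendritic cell markers summed to at most 1.51, 1.70 and 3.02 CPM. Marker sums of 2 other cell types stood at different levels by treatment. The sum of 4 stroma markers had a median of 317 CPM in unstimulated, 414 in LPS 3h, 228 in LPS 24h and 153 in tolerized WT cells, and of 297, 315, 167 and 152 CPM in Irg1-/- cells. Col1a1 and Col1a2 were lower in tolerized than in unstimulated cells, but Dcn went the other way. It was at 26.1, 13.5 and 14.1 CPM in unstimulated and at 38.9, 36.7 and 48.9 CPM in tolerized WT cultures, and was higher in tolerized Irg1-/- cultures too. The sum of 4 osteoclast markers had medians of 11.6, 72.3, 51.7 and 74.4 CPM in WT and 10.6, 69.2, 41.0 and 40.1 CPM in Irg1-/- cells. In WT cells Acp5 made most of this sum after LPS 3h, at 107, 68.5 and 72.3 CPM, beside 2.71, 6.21 and 7.56 without LPS. Ctsk did not rise with it, at 4.74, 0.95 and 0 CPM beside 4.64, 5.35 and 7.56. Calcr and Ocstamp had at most 11 and 12 counts in any library. The part of stroma or osteoclast cells in the members' changes was not tested. The prefix of the library labels, read as a library pool, takes 4 values and is partly tied to the groups. All 6 unstimulated libraries were in pool 4, the 3 cultures of each WT LPS group were in pools 1, 2 and 4, and no Irg1-/- LPS library was in pool 4. Irg1-/- treatment effects against unstimulated cells therefore have no within-pool value, and a fit with pool as a term is given where it changed a call.

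**Figure D1:**
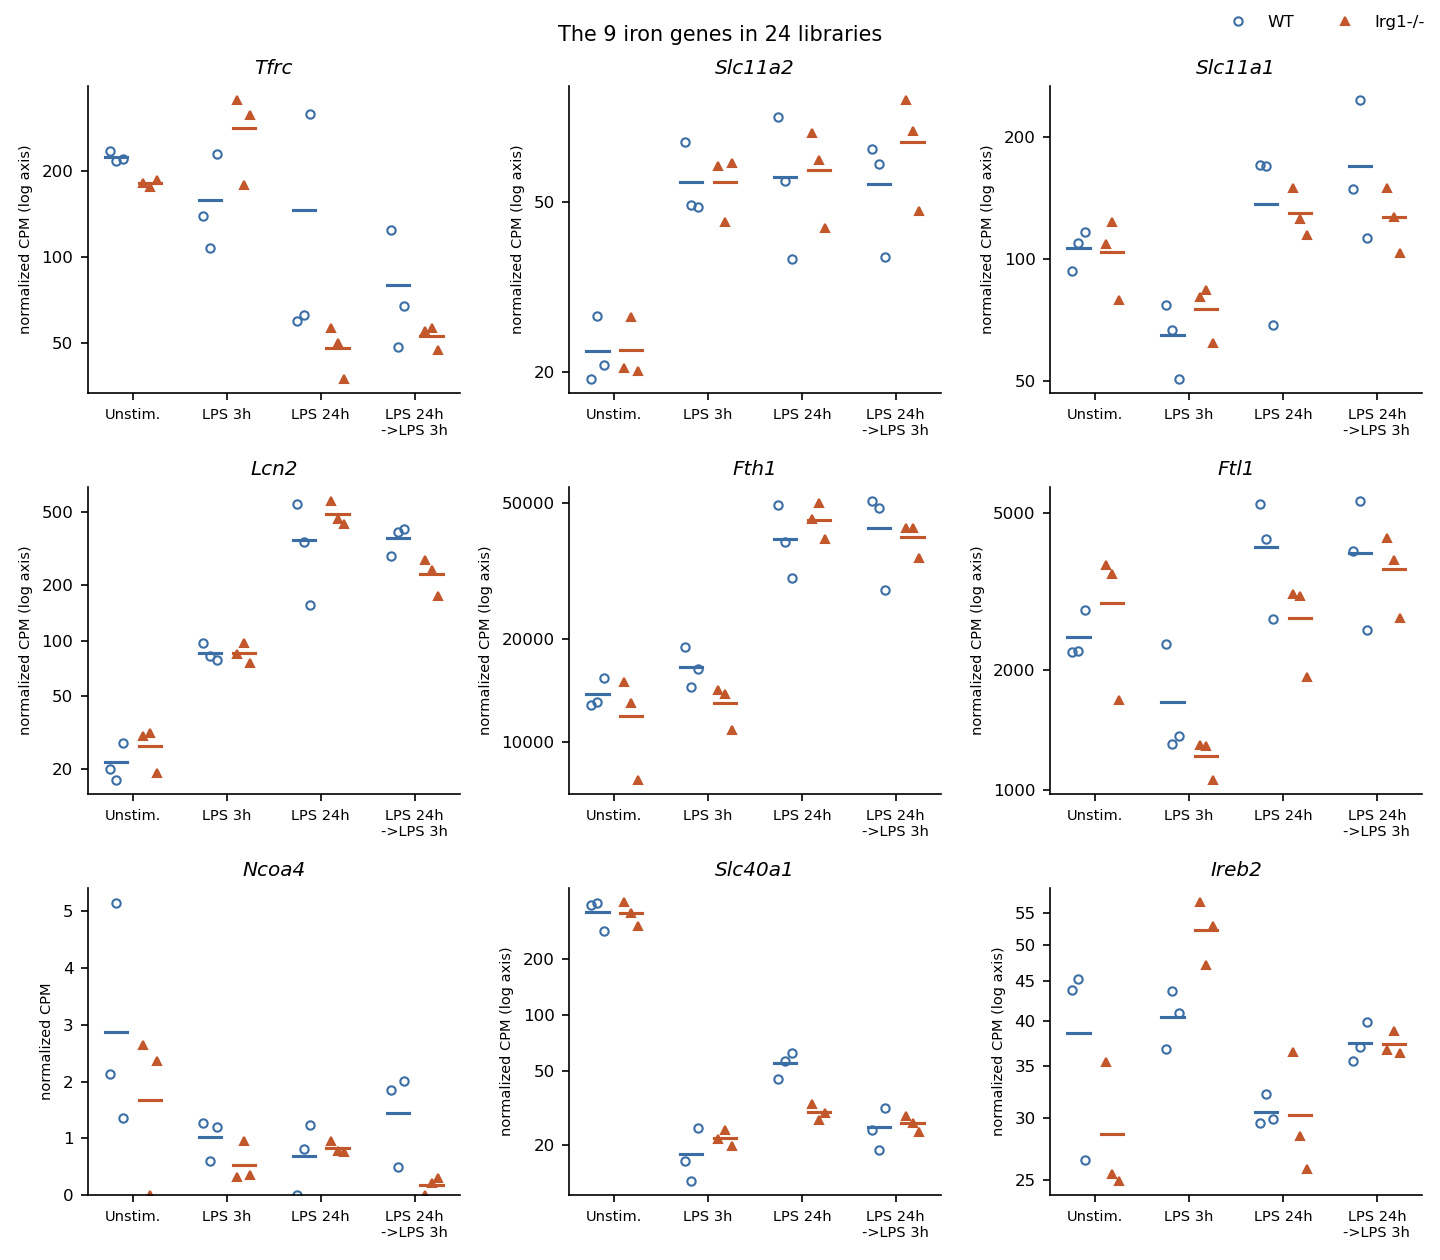
Normalised CPM of the 9 members in 24 libraries, 1 panel per gene, on a log axis except for Ncoa4 (linear axis). Open circles are WT cultures, filled triangles Irg1-/- cultures and bars the means of 3. Slc40a1 was at 284 to 407 CPM in unstimulated cells and at 12.8 to 62.8 CPM in all LPS-treated ones, while Lcn2 went the other way, from 17.5 to 31.3 CPM up to 573 CPM.

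Against unstimulated cells, the exporter transcript was lower and Slc11a2 and Lcn2 were higher in the LPS 3h and LPS 24h groups. Fth1 was called higher in both genotypes after 24 h. A gene was called where its p-value from edgeR's quasi-likelihood test, adjusted by Benjamini-Hochberg over the 11878 genes tested, was under 0.05. After 3 h in WT cells, 2 of the 9 members were called higher and 1 lower, beside 15.8% and 16.3% of all genes. After 3 h in Irg1-/- cells, 3 were called higher and 2 lower, beside 17.0% and 18.9%. After 24 h in WT cells, 3 were called higher and 1 lower, beside 9.25% and 6.98%, and in Irg1-/- cells 3 and 2, beside 7.31% and 6.38%. With 9 members these counts are coarse, and they are set beside the background as a description. The 3 h and 24 h comparisons of a genotype share their unstimulated libraries, so they are not independent of each other.

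The median log2 fold change of the members was −0.50 after 3 h in WT cells and 0.13 in Irg1-/- cells, beside −0.18 and −0.20 for all genes. After 24 h it was 0.36 and 0.08, beside 0.00 and 0.00. Members moved in opposite directions, and the medians hide the large changes of Slc40a1 and Lcn2.

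**Figure D2:**
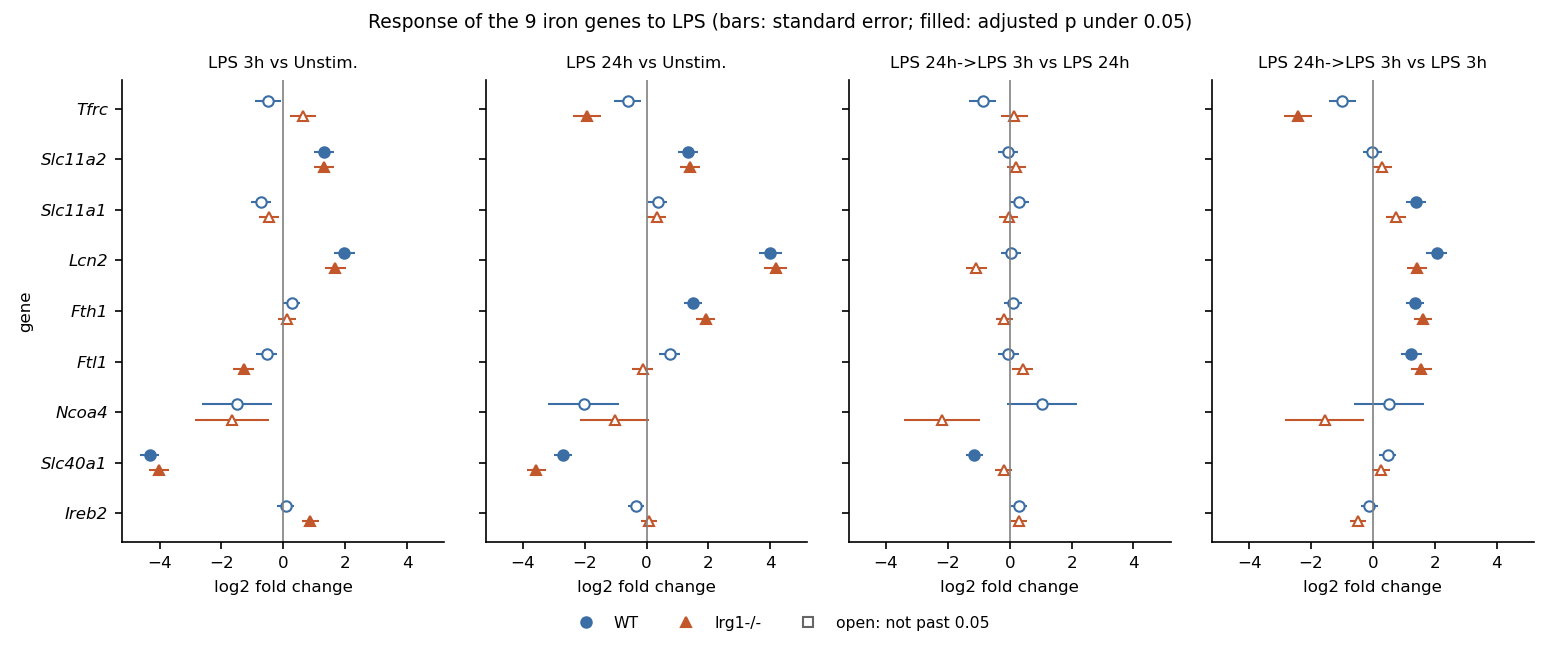
Log2 fold change of each member in 4 treatment comparisons, WT and Irg1-/- side by side, with bars of 1 SE. Filled symbols have an adjusted p under 0.05. Slc40a1 stands at −4.32 (WT) and −4.02 (Irg1-/-) after 3 h, and Lcn2 at 4.00 and 4.18 after 24 h.

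Slc40a1 (chr1:45908068-45926523, minus strand), the ferroportin gene, had the widest fall of the members. Unstimulated WT cultures 1 to 3 held 392, 403 and 284 CPM, and unstimulated Irg1-/- cultures 407, 357 and 303. After LPS 3h the WT cultures held 16.4, 12.8 and 24.6 CPM and the Irg1-/- cultures 21.6, 24.1 and 19.9. Every LPS-treated culture lay below every unstimulated one in both genotypes. The fall after 3 h was 20.0-fold in WT cells (log2 fold change −4.32 ± 0.32 SE, adjusted p = 1.42e-12) and 16.2-fold in Irg1-/- cells (−4.02 ± 0.31, adjusted p = 5.95e-12). In pool 4 alone, where WT unstimulated and LPS 3h libraries meet, the WT difference was −3.84.

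After LPS 24h, Slc40a1 stood at 45.3, 57.0 and 62.8 CPM in WT and at 33.3, 27.2 and 29.6 CPM in Irg1-/- cultures. Both sets stayed far under their unstimulated cultures, and they did not overlap with each other. The difference from unstimulated cells was 6.53-fold in WT (−2.71 ± 0.29, adjusted p = 1.72e-08) and 11.8-fold in Irg1-/- cells (−3.56 ± 0.30, adjusted p = 2.77e-10). Between genotypes the LPS 24h level was 1.83-fold lower in Irg1-/- cells (−0.87 ± 0.28), which did not pass over all genes (adjusted p = 0.177). In pool 1 alone that difference was −0.59.

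In tolerized cells Slc40a1 was at 24.1, 18.9 and 31.8 CPM in WT and at 28.8, 26.3 and 23.4 CPM in Irg1-/- cultures. The WT values lay below all WT LPS 24h values, whereas the Irg1-/- values overlapped with theirs. The WT change from LPS 24h was a 2.21-fold fall (−1.14 ± 0.28, adjusted p = 0.0143), and the Irg1-/- difference was −0.20 ± 0.28 (adjusted p = 0.842). Slc40a1 was the 1 member of 9 called lower in this WT comparison, beside 1.53% of all genes, and none was called higher, beside 2.46%. The WT call was lost when only the compared groups were fitted (−1.15, adjusted p = 0.16) and when LPS 24h culture 2 (adjusted p = 0.0624) or 3 (0.0861), or tolerized culture 1 (0.0658) or 2 (0.102), was left out. Within pools 1, 2 and 4 the WT differences were −0.91, −1.58 and −0.98. The difference between the genotypes' changes was 0.94 ± 0.39 and did not pass (adjusted p = 0.467). Tolerized cells held no more Slc40a1 than non-tolerized ones beyond their spread, with 0.48 ± 0.28 in WT (adjusted p = 0.221) and 0.26 ± 0.28 in Irg1-/- cells (adjusted p = 0.52).

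Tfrc (chr16:32608920-32632794, plus strand), the transferrin receptor gene, was lower after long LPS exposure in Irg1-/- cells, and in WT cells it depended on 1 culture. Unstimulated cultures held 234, 216 and 219 CPM in WT and 182, 176 and 186 in Irg1-/-. After LPS 24h the Irg1-/- cultures held 56.5, 49.7 and 37.3 CPM, all below the unstimulated ones. That was a 3.79-fold fall (−1.92 ± 0.45, adjusted p = 0.00249), and with pool as a term it was −1.02 and no longer passed (adjusted p = 0.239).

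In WT cells, LPS 24h cultures 1 and 2 held 59.5 and 62.3 CPM of Tfrc and culture 3 held 315. Culture 3 thus lay above every unstimulated culture while the others lay near the Irg1-/- values. The WT difference was −0.61 ± 0.43 (adjusted p = 0.393), and −1.93 without culture 3 (adjusted p = 4.03e-04). Culture 3 was the one WT LPS 24h library in pool 4 and had the lowest macrophage marker sum of all 24 libraries (3319 CPM, beside 5568 to 9833 in the rest). Within that sum Itgam went the other way, at 887 CPM beside 547 and 489 in WT LPS 24h cultures 1 and 2. Mertk was near culture 1 (162 and 163 CPM), and the other markers were lower. The part of pool or of cell content in the Tfrc level of culture 3 was not tested.

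The genotype difference in Tfrc after LPS 24h was −1.61 ± 0.44 (adjusted p = 0.0961), with the groups not overlapping. It was −0.32 without WT culture 3 (adjusted p = 0.921). Without WT culture 1 or 2 it passed, at −2.02 (adjusted p = 0.0150) and −2.01 (0.0323). In pool 1 alone it was −0.34. The size of this difference thus rested on 1 WT culture.

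After 3 h Tfrc was at 139, 107 and 228 CPM in WT and at 354, 178 and 313 CPM in Irg1-/- cultures, and both sets overlapped with unstimulated values. Neither difference passed, at −0.50 ± 0.43 in WT (adjusted p = 0.416) and 0.64 ± 0.43 in Irg1-/- cells (adjusted p = 0.266). With pool as a term the Irg1-/- difference was 2.30 and passed (adjusted p = 0.00746), in a fit where no Irg1-/- LPS library shares a pool with the unstimulated ones. Tolerized cultures held 124, 48.1 and 67.0 CPM in WT and 54.7, 56.4 and 47.2 in Irg1-/-. The Irg1-/- tolerized values lay below all Irg1-/- LPS 3h values, by 5.34-fold (−2.42 ± 0.46, adjusted p = 0.00016; −3.02 with pool as a term). The WT tolerized values overlapped with the WT LPS 3h ones, at −0.99 ± 0.44 (adjusted p = 0.0942). Without WT tolerized culture 1 the WT difference was −1.50 and passed (adjusted p = 0.0327).

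Slc11a2 (chr15:100387898-100425072, minus strand) encodes DMT1 and rose in both genotypes. Unstimulated cultures held 19.3, 27.0 and 20.8 CPM in WT and 20.4, 27.0 and 20.1 in Irg1-/-. LPS 3h cultures held 68.9, 49.1 and 48.6 CPM in WT and 60.5, 44.9 and 61.7 in Irg1-/-. All LPS-treated cultures, at 36.7 CPM or more, lay above all unstimulated ones. The rise after 3 h was 2.48-fold in each genotype (1.31 ± 0.32 in both, adjusted p = 0.00189 in WT and 0.00192 in Irg1-/-).

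After LPS 24h, Slc11a2 was at 78.8, 55.8 and 36.7 CPM in WT and at 72.2, 62.5 and 43.4 in Irg1-/- cultures. The rise was 2.55-fold in WT (1.35, adjusted p = 0.0028) and 2.65-fold in Irg1-/- cells (1.40, adjusted p = 0.00228). With pool as a term the WT rise after 3 h kept its call (0.89, adjusted p = 0.0384). The others lost it, at 0.84 in Irg1-/- cells after 3 h (adjusted p = 0.241), 0.88 in WT after 24 h (0.079) and 0.73 in Irg1-/- after 24 h (0.274). Slc11a2 overlaps the gene Gm5475 on the opposite strand, and the strand setting of the counting is not given in the sources used here. Tolerized cultures, at 37.2 to 66.3 CPM in WT and 47.6 to 86.4 in Irg1-/-, overlapped with both other LPS groups.

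Slc11a1 (chr1:74375195-74386062, plus strand) encodes NRAMP1, the phagosomal metal transporter. It was at 93.3, 109 and 117 CPM in unstimulated WT cultures and at 77.1, 66.9 and 50.5 CPM after LPS 3h. The 3 h values lay below all unstimulated ones, but the difference of −0.72 ± 0.32 did not pass (adjusted p = 0.0891). With pool as a term it was −1.30 and passed (adjusted p = 0.00184). The Irg1-/- difference was −0.46 ± 0.32 (adjusted p = 0.278; −1.35 with pool as a term, adjusted p = 0.0428), with unstimulated cultures at 79.3 to 123 CPM and LPS 3h cultures at 62.1 to 83.5.

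Tolerized WT cultures held 149, 247 and 112 CPM of Slc11a1, all above the non-tolerized ones. The difference was 2.61-fold (1.39 ± 0.33, adjusted p = 0.00193). Tolerized Irg1-/- cultures, at 149.9, 127 and 103 CPM, also lay above all 3 of their non-tolerized cultures, by 0.75 ± 0.32, which missed the threshold (adjusted p = 0.0814) and passed when only the compared groups were fitted (0.72, adjusted p = 0.0462). LPS 24h cultures spread from 68.7 to 170.3 CPM in WT and from 115 to 149.8 in Irg1-/-, and neither differed from unstimulated cells beyond the spread (0.36 and 0.33).

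Lcn2 (chr2:32384633-32388252, minus strand), the siderophore-binding lipocalin gene, had the widest rise. Unstimulated cultures held 20.1, 17.5 and 27.9 CPM in WT and 30.2, 31.3 and 19.1 in Irg1-/-. LPS 3h cultures held 96.4, 82.9 and 78.2 CPM in WT and 84.0, 96.5 and 75.6 in Irg1-/-. The groups of both genotypes overlapped with each other and lay above all unstimulated cultures. The rise was 3.92-fold in WT (1.97 ± 0.34, adjusted p = 2.64e-05) and 3.19-fold in Irg1-/- cells (1.67 ± 0.34, adjusted p = 0.000217). With pool as a term the Irg1-/- rise was 1.25 and did not pass (adjusted p = 0.108).

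LPS 24h cultures held 552, 342 and 155 CPM of Lcn2 in WT and 573, 455 and 428 in Irg1-/-. Even the lowest, WT culture 3, lay above every LPS 3h culture. The rise over unstimulated cells on the log2 scale was 4.00 ± 0.37 in WT (adjusted p = 6.44e-10) and 4.18 ± 0.37 in Irg1-/- cells (adjusted p = 6.28e-10), or 18.1-fold in the latter.

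Tolerized cultures held 289, 387 and 405 CPM of Lcn2 in WT and 275, 241 and 176 in Irg1-/-. Every WT value lay above every Irg1-/- value, and every Irg1-/- tolerized value lay below every Irg1-/- LPS 24h value. From LPS 24h, Lcn2 differed by −1.07 ± 0.33 in Irg1-/- cells (adjusted p = 0.0506) and by 0.04 ± 0.32 in WT cells (adjusted p = 0.974). The Irg1-/- value sat at the threshold and passed under 5 of 9 alternative fits, among them DESeq2 (adjusted p = 0.0161). It did not pass with pool as a term (adjusted p = 0.0746) or without every culture 3 (0.0663). With single libraries left out it passed in 0 of 6 fits (adjusted p = 0.0833 to 0.25). The difference between the genotypes' changes was −1.12 ± 0.46 (adjusted p = 0.466), and the genotype difference in tolerized cells was −0.64 ± 0.33 (adjusted p = 0.658), with −0.49 within pool 1 and −0.49 within pool 2. Neither passed. Against non-tolerized cells Lcn2 was 4.20-fold higher in WT (2.07 ± 0.34, adjusted p = 2.8e-05) and 2.70-fold higher in Irg1-/- tolerized cells (1.43 ± 0.33, adjusted p = 0.00151), the second without a call when pool was a term (1.44, adjusted p = 0.0715).

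Neutrophils and their precursors also express Lcn2, so 10 of their marker genes were summed in each library. The sum was 647 to 818 CPM in unstimulated WT cells and 506 to 796 CPM in Irg1-/- ones. It was lower, at 189 to 299 CPM and 199.5 to 280.4 CPM, in LPS 24h cells, where Lcn2 was highest. In tolerized cells it was 129 to 174 CPM in WT and 134 to 203 CPM in Irg1-/-. The genes Ly6g, Mpo and Elane had at most 14, 37 and 34 counts in any library. Other markers of the list were clearly present: Ngp, Ltf, Retnlg and Camp reached 1197, 772, 469 and 285 counts in unstimulated libraries. In LPS 24h libraries these 4 had at most 48, 33, 8 and 16 counts. In unstimulated and LPS 3h libraries most of the sum came from S100a8 and S100a9. In WT LPS 24h culture 3 these were at 33.0 and 37.4 CPM, below Mmp8. Not every marker was lower after 24 h: Mmp8 was at 67.3, 52.8 and 117 CPM in WT LPS 24h cultures, beside 95.7, 90.4 and 97.8 CPM without LPS. The part of such cells in the Lcn2 levels was not tested.

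**Figure D3:**
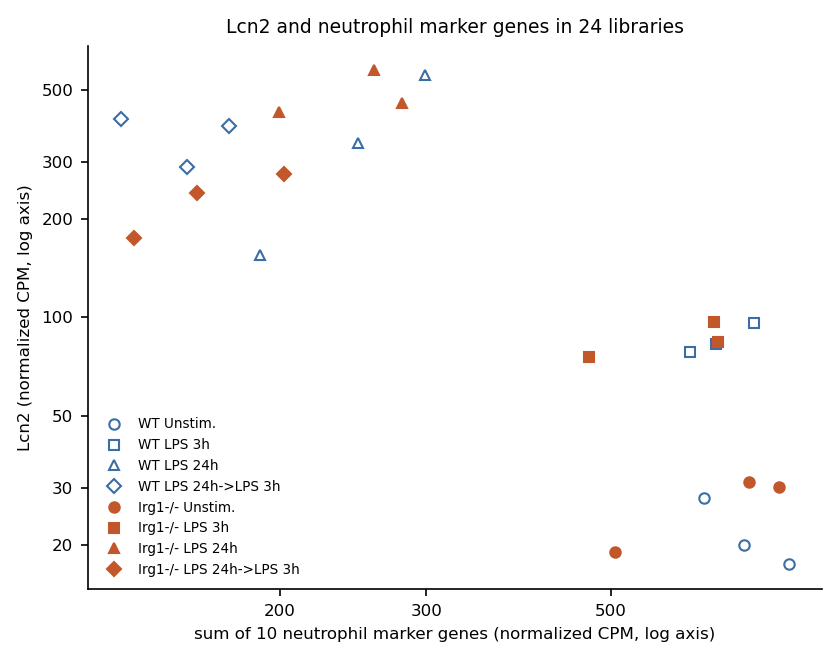
Lcn2 (vertical axis, normalised CPM, log scale) against the summed level of 10 neutrophil marker genes (horizontal axis, normalised CPM, log scale) in 24 libraries, by genotype and treatment. Unstimulated and LPS 3h libraries lie at marker sums of 471 to 818 CPM with Lcn2 at 96.5 CPM or less, and LPS 24h and tolerized libraries at 129 to 299 CPM with Lcn2 at 155 CPM or more.

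Fth1 (chr19:9980598-9985098, plus strand), the ferritin heavy chain gene, rose after 24 h and not measurably after 3 h. It was at 12827, 13069 and 15439.5 CPM in unstimulated WT cultures and at 14943, 12997 and 7754 CPM in Irg1-/- ones. LPS 24h cultures held 49227, 38392 and 30104 CPM in WT and 44824, 49975 and 39052 in Irg1-/-. All 6 lay above all unstimulated and all LPS 3h cultures. The rise was 2.85-fold in WT (1.51 ± 0.29, adjusted p = 2.78e-04) and 3.75-fold in Irg1-/- cells (1.91 ± 0.30, adjusted p = 1.44e-05). In pool 4 alone the WT difference was 1.13.

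After LPS 3h, Fth1 was at 18950.5, 14512 and 16301 CPM in WT and at 14234, 13824 and 10870.1 CPM in Irg1-/- cultures, close to unstimulated values. The differences were 0.27 ± 0.29 (adjusted p = 0.522) and 0.13 ± 0.29 (adjusted p = 0.775). Tolerized cultures held 50574, 48268 and 27853 CPM in WT and 42080.4, 42284 and 34452 in Irg1-/-, all above every LPS 3h culture. Against LPS 3h that was 2.55-fold more in WT (1.35 ± 0.29, adjusted p = 8.45e-04) and 3.05-fold more in Irg1-/- cells (1.61 ± 0.29, adjusted p = 1.06e-04). Fth1 was the gene with the most counts in every LPS 24h and tolerized library and in 5 of 6 unstimulated ones, and ranked 6 to 9 after LPS 3h. Its share of all gene counts ran from 0.724% to 5.83%.

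Ftl1 (chr7:45457944-45459884, minus strand), the light chain gene, was not called after 24 h in either genotype. Unstimulated cultures held 2219.9, 2234 and 2843 CPM in WT and 3682, 3501 and 1684 in Irg1-/-. LPS 24h cultures held 5259.9, 4292 and 2701 CPM in WT and 3116, 3078 and 1929 in Irg1-/-, and each set overlapped with its unstimulated one. The differences were 0.75 ± 0.33 (adjusted p = 0.136) and −0.13 ± 0.33 (adjusted p = 0.863), so neither passed. Without every culture 3 the WT difference was 1.06 and passed (adjusted p = 0.0132).

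LPS 3h cultures held 2327, 1307 and 1370.3 CPM of Ftl1 in WT and 1299.6, 1289 and 1059 in Irg1-/-. The Irg1-/- values lay below all unstimulated ones, a 2.43-fold fall (−1.28 ± 0.34, adjusted p = 0.00341; −1.88 with pool as a term). In WT the difference was −0.54 ± 0.33 (adjusted p = 0.223), and −1.02 with pool as a term, where it passed (adjusted p = 0.0266). Tolerized cultures held 3999.6, 5349 and 2529 CPM in WT and 4322, 3805 and 2711 in Irg1-/-, in each genotype above all LPS 3h cultures. The rise over LPS 3h was 2.37-fold in WT (1.25 ± 0.34, adjusted p = 0.00633) and 2.97-fold in Irg1-/- cells (1.57 ± 0.34, adjusted p = 7.4e-04). Without WT tolerized culture 2 the WT rise was 0.94 and missed the threshold (adjusted p = 0.059).

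Ferritin genes have near-identical processed pseudogenes. Reads that align to several places were not counted, so both ferritin levels may be incomplete, and 15.1% to 22.5% of each library's reads were set aside in this way over all genes. Ftl1-ps1, a close copy on chromosome 13 that the table lists as a gene of its own, held 12142 counts in all libraries together, beside 773872 for Ftl1 and 7935210 for Fth1.

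Ncoa4 (chr14:32159865-32179855, plus strand), the ferritin cargo receptor gene, was near the limit of counting. It had 0 to 54 counts per library, or at most 5.16 CPM, and its group means ran from 0.174 CPM in tolerized Irg1-/- cells to 2.88 CPM in unstimulated WT cells. No comparison of Ncoa4 passed. Its largest difference between genotypes was in tolerized cells, where WT libraries held 5 to 25 counts and Irg1-/- libraries 0 to 4 (−2.99 ± 1.24, adjusted p = 0.495). Differences of Ncoa4 carried an SE of 1.09 or more in each comparison of 2 groups.

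Ireb2 (chr9:54863789-54912530, plus strand), the IRP2 gene, varied least, by 2.28-fold between its lowest and highest library. Unstimulated cultures held 43.8, 45.3 and 26.5 CPM in WT and 35.4, 25.4 and 24.9 in Irg1-/-. LPS 3h cultures held 36.8, 43.6 and 40.9 CPM in WT and 56.8, 47.2 and 52.9 in Irg1-/-. The Irg1-/- LPS 3h cultures thus lay above every other LPS 3h and every unstimulated culture. Their rise was 1.83-fold (0.87 ± 0.27, adjusted p = 0.0117), which was lost without the filter on low counts (adjusted p = 0.0508) and with pool as a term (0.99, adjusted p = 0.115). In WT cells the difference was 0.07 ± 0.27 (adjusted p = 0.871), and −0.11 without unstimulated culture 3. From non-tolerized to tolerized Irg1-/- cells Ireb2 differed by −0.49 ± 0.27 (adjusted p = 0.175), which passed with DESeq2 alone (−0.60, adjusted p = 0.0441). After 24 h and in tolerized cells Ireb2 was between 25.8 and 39.8 CPM in all cultures. IRP2 is known to be controlled mainly through protein decay, which these data do not measure.

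Across the tolerized and non-tolerized groups, 4 of 9 members (Slc11a1, Lcn2, Fth1 and Ftl1) were called higher in tolerized WT cells and none lower, beside 12.4% and 13.1% of all genes. In Irg1-/- cells 3 (Lcn2, Fth1 and Ftl1) were called higher and 1 (Tfrc) lower, beside 13.1% and 14.1%. The median over the members was 0.51 in WT and 0.31 in Irg1-/- cells, beside 0.13 and 0.12 for all genes. From LPS 24h to tolerized Irg1-/- cells no member was called by edgeR, beside 3.44% of all genes higher and 1.70% lower. There 1 member had an unadjusted p under 0.05, and DESeq2 called 1, in both cases Lcn2. No share of all genes stands beside these counts.

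Cultures with the number 3 often held low values of some members. Culture 3 held the lowest of the 3 values in 7 of 8 groups for Slc11a1 and in 6 of 8 for each of Slc11a2, Fth1, Ftl1 and Lcn2. It was lowest in 4 of 8 groups for Slc40a1 and Ireb2 and in 2 of 8 for Tfrc and Ncoa4. For Slc40a1, Tfrc and Ncoa4 it was highest in 3 of 8. No share of all genes stands beside these counts. In the WT LPS groups culture 3 was each time the library in pool 4, so number and pool cannot be told apart there. All unstimulated cultures were in pool 4, and all Irg1-/- LPS 24h cultures were in pool 1. Slc11a1, Slc11a2, Fth1, Ftl1 and Lcn2 were lowest in culture 3 of both the unstimulated and the LPS 24h Irg1-/- group. In unstimulated WT cells culture 3 was instead highest for Slc11a1, Fth1, Ftl1 and Lcn2. The part of pool in these low values was not tested. Without every culture 3, which was tried after seeing the data, no call of a member among the treatment comparisons named above was lost.

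Between genotypes no member was called in any of the 4 treatments. The background was as low, with 0.0421% of genes called without LPS, 0.00842% in the LPS 3h groups, 0.598% in the LPS 24h groups and 0.118% in tolerized cells. By unadjusted p under 0.05, edgeR gave 0, 0, 2 and 1 members, and DESeq2's adjusted test called 0, 0, 1 and 0, the 1 being Tfrc after LPS 24h (adjusted p = 0.0251). Over the mean of the 3 LPS treatments no member was called either, beside 0.337% of genes, with Ftl1 the lone member under an unadjusted 0.05 (−0.39 ± 0.19, adjusted p = 0.497). DESeq2 called none there. The shares of genes given here are for edgeR's adjusted threshold. None stands beside the unadjusted and DESeq2 counts, so these describe single genes and not the members as a set.

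The genotypes did not overlap for 1 of 9 members without LPS, which was Tfrc (−0.30). In the LPS 3h groups they did not overlap for 3, namely Fth1 (−0.35), Ftl1 (−0.46) and Ireb2 (0.37). In the LPS 24h groups the 2 were Slc40a1 and Tfrc, and in tolerized cells the 2 were Lcn2 and Ncoa4. Over all genes such separation was seen in 9.44%, 9.08%, 16.5% and 12.9%. A two-sided exact permutation test of 3 against 3 cultures cannot go below 0.1, so none of these separations can pass alone.

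**Figure D4:**
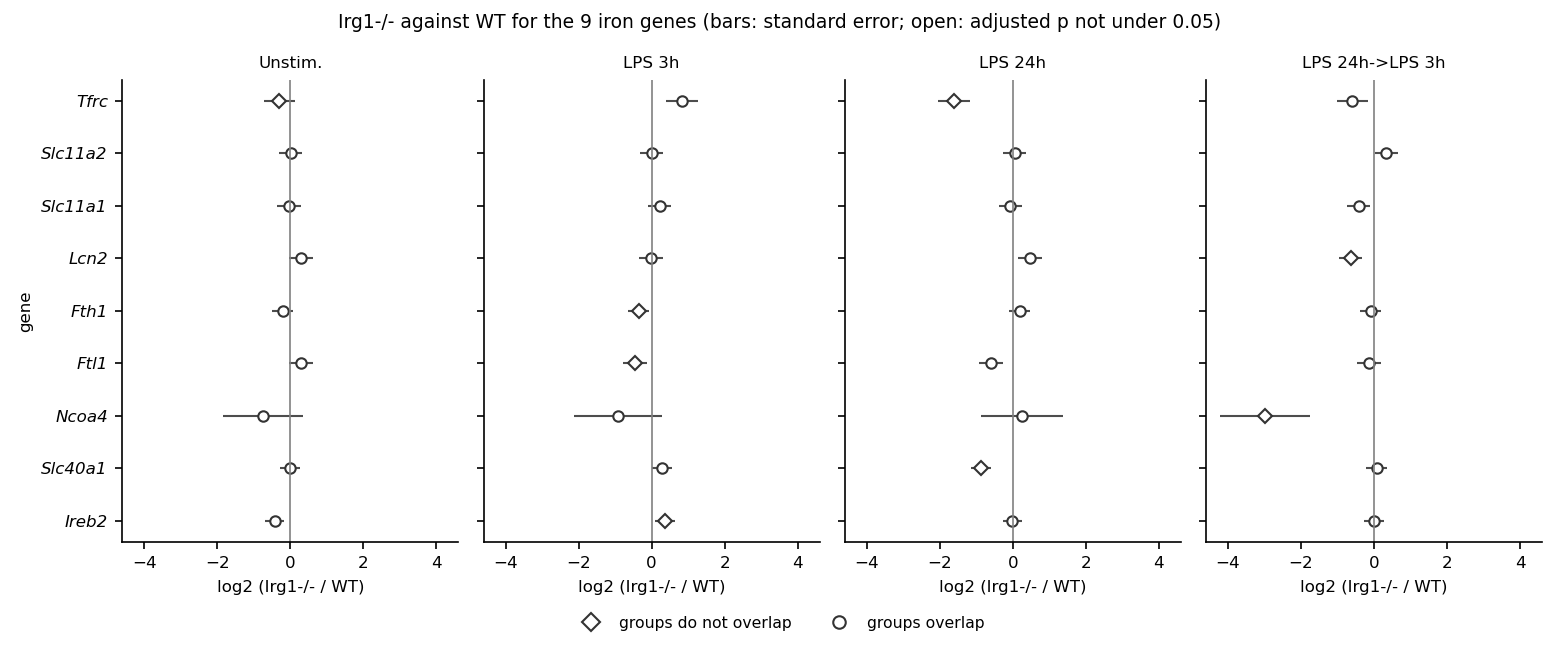
Log2 ratio of Irg1-/- to WT for each member in 4 treatments, with bars of 1 SE. No ratio passed an adjusted p of 0.05, and diamonds mark groups that did not overlap. Slc40a1 (−0.87) and Tfrc (−1.61) after LPS 24h lie farthest below 0 apart from the sparse Ncoa4.

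The responses to LPS were also compared between genotypes by interaction terms. No member passed for LPS 3h, LPS 24h or restimulation, beside 0.00842%, 0.210% and 0.00842% of genes, and by DESeq2 none did. At an unadjusted p under 0.05, for which no share of all genes is given, there were 1, 2 and 2 members. These were Ireb2 for LPS 3h (0.80 ± 0.38, adjusted p = 0.863), Slc40a1 (−0.86 ± 0.39, adjusted p = 0.547) and Tfrc (−1.31 ± 0.61, adjusted p = 0.579) for LPS 24h, and Slc40a1 and Lcn2 for restimulation, as given above. The Tfrc term was 0.15 without every culture 3, so its sign rested on those cultures.

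Other genes of iron and haem handling were read from a list of 51, of which 50 were in the table and 42 had enough counts to be tested. After LPS 3h, 7 were called higher and 12 lower in WT cells, beside 15.8% and 16.3% of all genes, and 8 and 13 in Irg1-/- cells, beside 17.0% and 18.9%. The list's median log2 fold change was −0.34 and −0.63, beside −0.18 and −0.20 for all genes. After LPS 24h the counts were 8 and 3 in WT, beside 9.25% and 6.98%, and 7 and 2 in Irg1-/- cells, beside 7.31% and 6.38%, with medians of −0.02 and −0.13. The counts are a description of the list, and several are close to the background share. Of the 8 too low to test, among them the hepcidin gene Hamp and the second transferrin receptor gene Tfr2, none had more than 24 counts in a library.

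Cp, which encodes the ferroxidase ceruloplasmin that loads exported iron onto transferrin, had the highest fold of the list in WT cells at both times. In Irg1-/- cells after 3 h only Steap4, at 0 counts without LPS, had a higher fitted value. It went from 6.79 ± 2.77 CPM (SD, n = 3) in unstimulated WT cells to 701 ± 92.6 CPM after LPS 3h, or 6.70 ± 0.37 on the log2 scale (adjusted p = 3.28e-15). In Irg1-/- cells it went from 13.0 ± 2.33 to 895 ± 159 CPM (6.11 ± 0.36, adjusted p = 1.91e-14). After 24 h it was still higher, by 5.42 in WT (adjusted p = 3.8e-13) and 4.83 in Irg1-/- cells (adjusted p = 5.34e-12). Cp thus stood high in the same cultures in which Slc40a1 was low.

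Slc39a14, which encodes ZIP14, an importer of iron not bound to transferrin, rose by 4.41 after 3 h in WT (adjusted p = 4.39e-08) and by 4.42 in Irg1-/- cells (6.39e-08). It was higher by 2.83 and 2.99 after 24 h (adjusted p = 5.98e-05 and 5.2e-05). Tolerized WT cultures held 11.2, 23.4 and 16.5 CPM and tolerized Irg1-/- cultures 41.1, 37.3 and 89.9. The latter lay above the former, by 1.72 ± 0.46, which did not pass (adjusted p = 0.147). It passed with DESeq2 (1.72, adjusted p = 0.0387) and with edgeR without the filter on low counts (1.73, adjusted p = 9.08e-04). With edgeR and the filter no gene of the list was called between genotypes or in an interaction. At an unadjusted p under 0.05 there were 3, 2, 4 and 6 in the 4 treatments. In the interactions for LPS 3h, LPS 24h and restimulation there were 1, 2 and 5. No share of all genes stands beside these unadjusted counts, so they are not read as a result about the list. DESeq2 called 1 in tolerized cells (Slc39a14) and 1 in the restimulation interaction (Flvcr1, −1.90, adjusted p = 0.0261). Without the filter edgeR called these as well (Flvcr1 at −1.88, adjusted p = 0.0129), and Alas1 over the mean of the LPS treatments (−0.68, adjusted p = 0.0398).

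Hmox1, whose product heme oxygenase 1 frees iron from haem, rose after 24 h from 44.7 to 339 CPM in WT (2.92 ± 0.38, adjusted p = 7.4e-07) and from 54.1 to 197 CPM in Irg1-/- cells (1.87 ± 0.37, adjusted p = 4.16e-04). It was also higher in tolerized than in non-tolerized cells, by 2.62 in WT and 2.73 in Irg1-/-. Trf, the transferrin gene, was lower at 24 h, with a log2 fold change of −2.31 in WT (adjusted p = 1.44e-04) and −3.34 in Irg1-/- cells (1.10e-06). Fbxl5, whose product marks IRP2 for decay when iron is ample, rose after 24 h by 1.39 in WT (adjusted p = 0.00275) and by 1.82 in Irg1-/- cells (1.91e-04), and differed by −1.15 between tolerized and LPS 24h WT cells (adjusted p = 0.0409). In Irg1-/- cells it also rose after 3 h, by 1.72 (adjusted p = 1.57e-04). Steap3, whose product reduces iron in endosomes, was lower after 3 h in WT cells (−1.11, adjusted p = 0.045). Aco1, which encodes the other iron regulatory protein, IRP1, stayed between 9.6 and 23.0 CPM in all libraries, and no comparison of it passed.

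**Figure D5:**
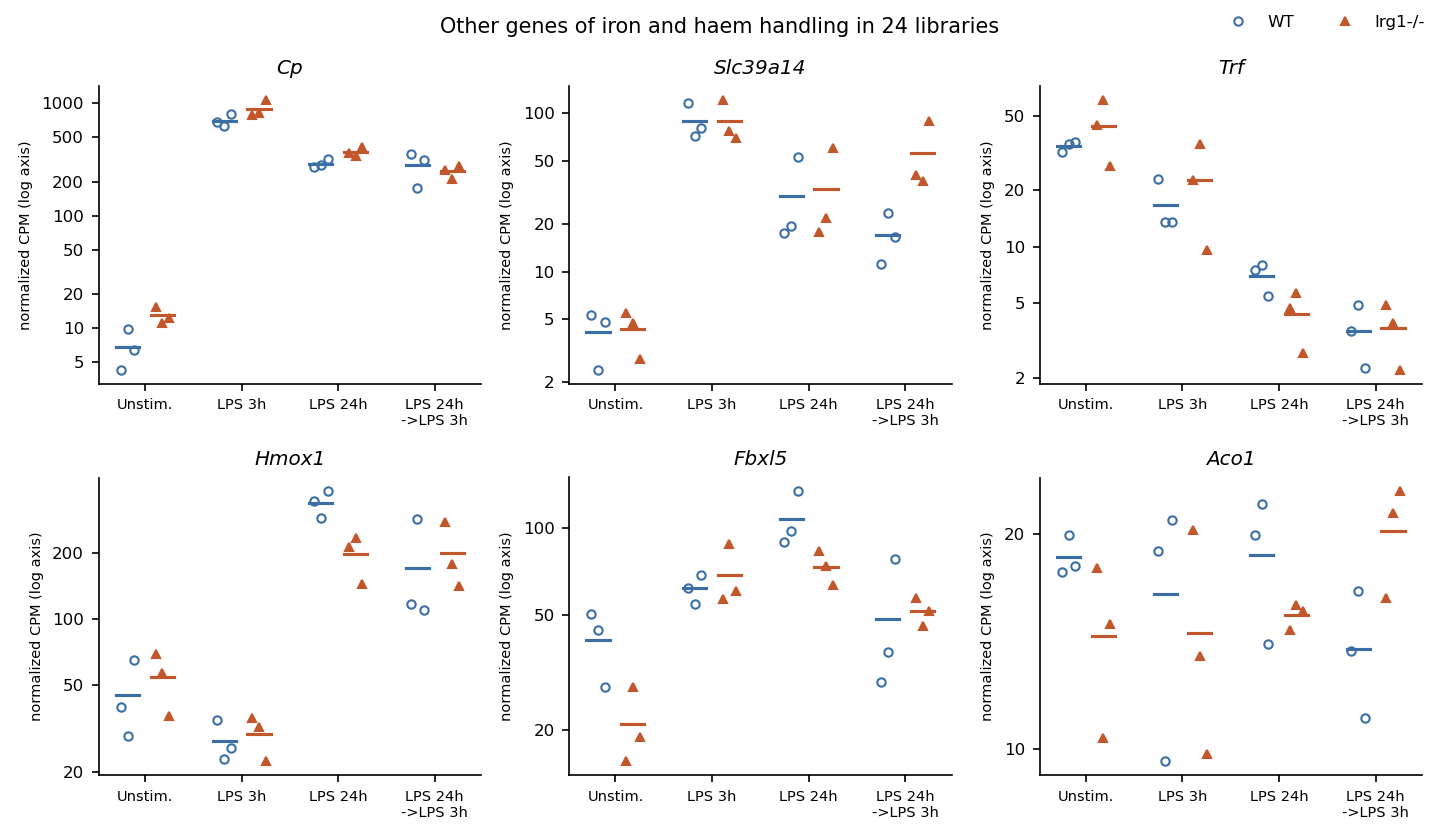
Normalised CPM (log axis) of Cp, Slc39a14, Trf, Hmox1, Fbxl5 and Aco1 in 24 libraries, with open circles for WT cultures, filled triangles for Irg1-/- cultures and bars for means of 3. Cp rises from 6.79 to 701 CPM after LPS 3h in WT cells, while Aco1 stays between 9.6 and 23.0 CPM throughout.

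Among the lowest fold changes after 3 h in WT cells were those of Mon1a (−1.99), whose product is linked to ferroportin trafficking, and of the haem synthesis gene Alad (−1.96). Mon1a held 13 to 23 counts and Alad 0 to 13 in the WT LPS 3h libraries. Alas1, which makes the first enzyme of haem synthesis, rose instead, by 1.85 in WT (adjusted p = 0.000631) and 2.58 in Irg1-/- cells (1.12e-05), and is named here after its values were seen. The lowest in Irg1-/- cells included the biliverdin reductase gene Blvra (−1.70) and the ferrochelatase gene Fech (−1.64). Slc25a37, the mitochondrial iron importer mitoferrin 1, was among the highest in WT cells (2.30). Steap4, a metalloreductase gene, had no counts in any unstimulated Irg1-/- library and 1.54, 2.38 and 0.528 CPM after LPS 3h, at least 3.73-fold higher against a floor of 3 counts. After 24 h the lowest in WT included Trf and Blvra (−0.97). The haemoglobin scavenger receptor gene Cd163 was lowest in Irg1-/- cells (−4.04 ± 1.01), with 3 to 24 counts per LPS 24h library.

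Between tolerized and LPS 24h cells, Fbxl5 was the 1 gene of the list called in WT, and Hmox2 (−1.39) and the haem exporter gene Flvcr1 (−1.26) were called in Irg1-/- cells. Against non-tolerized cells, 7 genes were called higher and 5 lower in tolerized WT cells, beside 12.4% and 13.1% of all genes, and 9 and 6 in Irg1-/- cells, beside 13.1% and 14.1%. Besides Hmox1, the highest in WT included the haem synthesis gene Uros (2.39), and the lowest were Slc39a14 (−2.39), the metal importer gene Slc39a8 (−2.30) and Trf (−2.22). Uros held 2 to 7 counts in non-tolerized WT libraries, and Slc39a8 held 1 to 23 in tolerized WT ones. In Irg1-/- cells the highest besides Hmox1 were the haem transporter gene Slc48a1 (1.75) and the iron-sulfur assembly gene Glrx5 (1.63), and the lowest were Cd163 (−3.62), Epas1 (−2.99) and Slc39a8 (−2.63). The last 3 genes were sparse in tolerized Irg1-/- libraries, at 7 to 11, 0 to 9 and 8 to 22 counts. The SE was 1.00 for Cd163 and 1.06 for Epas1.

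The genes most like each member were found by Pearson's r of log2 CPM over the 24 libraries, which share treatment, pool and depth, and are given as a description. For Slc40a1 they were BC106179 (0.961), Snx29 (0.96) and Lpin1 (0.957). For Lcn2 they were Aoah (0.966), Saa3 (0.965) and Ly6e (0.958), and for Fth1 Clec4a1 (0.96), Bsg (0.955) and Rac2 (0.953). Ftl1 was closest to Dynll1 (0.95), Gpx1 (0.921) and Cyb5a (0.919), and Slc11a1 to Dynll1 (0.915), Uqcr10 (0.914) and Ciao2a (0.906). Slc11a2 had Slc31a2 (0.93), U90926 (0.93) and Tspo (0.92), Tfrc had Clec7a (0.884), Prrx1 (0.863) and Reps2 (0.862), and Ireb2 had Fsd1l (0.779), Abr (0.778) and Rel (0.762). Fth1 and Ftl1 shared no gene among these.

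By level, the order of groups was clearest for Slc40a1 and Lcn2. For Slc40a1 the 2 unstimulated groups overlapped with each other and stood above all others, WT LPS 24h stood next and overlapped with no neighbour, and the other 5 groups each overlapped with the next. For Lcn2 the unstimulated groups were lowest, the LPS 3h groups came next with no overlap below or above, and Irg1-/- LPS 24h had the highest mean, above every tolerized WT culture. WT LPS 24h, at 155 to 552 CPM, overlapped with Irg1-/- LPS 24h and with the tolerized groups. Slc11a2 fell into only 2 sets, the unstimulated groups and all LPS groups, and within each set neighbours overlapped.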

How the data were processed

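The authors made 3′-end libraries from oligo-dT primers that carry a barcode per sample, pooled them, ran 12 cycles of PCR and, by their processing notes, aligned reads to mm10 with STAR. The deposited values are whole-number counts of reads per gene, with no normalisation. The counting program, annotation and strand setting are not given in the sources used here. There were no molecular identifiers, so counts include PCR copies and their precision covers counting error at best. The 5 summary lines of the table were left out. Groups and culture numbers came from the sample labels.

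Symbols came from GENCODE M21 by Ensembl identifier. Genes were kept by edgeR's filterByExpr (11878 of 22165), libraries were scaled by TMM, and 1 quasi-likelihood model with 8 group terms was fitted to 24 libraries (edgeR 4.0.16, limma 3.58.1 and R 4.3.3), with Benjamini-Hochberg adjustment over all genes tested and a threshold of 0.05. The SE is the log2 fold change divided by the square root of F. Likeness used log2 CPM with a prior count of 2. The fit was checked on simulated counts. The p-values measure the spread between these cultures. Alternatives were DESeq2 1.42.0 (size factors, Wald test), other filters, fits of the compared groups alone, a replicate block, pool as a term, TMM factors from all but the 20 most-counted genes, and leaving out each library. All members are named. From the iron list, up to 3 highest and 3 lowest called genes without overlap between groups and with at least 10 counts on average in the higher group were named per comparison, and Hmox1, Aco1, Fbxl5, Steap3, Steap4 and Slc39a14 whatever their values. Some genes that this rule names are not reported here. The members, lists and tests were chosen with earlier results of these data known. Tables and figures used Python 3.11.15, pandas 2.3.3, numpy 2.4.6 and matplotlib 3.10.9.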

Additional observations from a re-analysis of the deposited data

How the results depend on the processing

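The number of members called differed from the reported one by over 1.5 times in 5 comparisons. Between genotypes after LPS 24h, with no member called, 1 (Tfrc) was called by DESeq2's Wald test and 1 without the filter on low counts, and 0 to 1 when single libraries were left out. In WT cells after LPS 3h, with 3 called, pool as a term gave 5, and in Irg1-/- cells after LPS 24h, with 5 called, it gave 3. From LPS 24h to tolerized WT cells, with 1 called, fitting the compared groups alone gave 0, and leaving out single libraries 0 to 1. In the same Irg1-/- comparison, with none called, 1 (Lcn2) was called under DESeq2 size factors, the Wald test, no filter, the compared groups alone and the replicate block. The sign changed for Ireb2 in WT cells after LPS 3h, where leaving out single libraries gave -0.11 (unstimulated culture 3) to 0.24, and -0.11 without every culture 3, and for the Tfrc interaction after LPS 24h, to 0.15 without every culture 3, an alternative added after seeing the data. The cause was not tested in any of these. No share of all genes called under the same fit stands beside these counts. They describe how calls of single members depend on the fit and not the members as a set.

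No source says that a culture number marks a shared animal or day, although in the WT LPS groups number and pool go together (pools 1, 2 and 4). In none of 28 pairs of groups were all 3 correlations over 0.1 (range -0.109 to 0.337). Own numbers correlated best in 67 of 168 checks, each among 3 numbers. Cultures numbered 3 did correlate, at 0.187 to 0.337, among WT LPS 24h, unstimulated Irg1-/-, Irg1-/- LPS 24h and both tolerized groups. In the other pairs their correlation was 0.077 or less. The source of this was not tested. The replicate block brought Lcn2 in restimulated Irg1-/- cells (-1.08, adjusted p = 0.0322), Slc11a1 in WT cells after LPS 3h (-0.77, 0.03) and Slc11a1 in tolerized against non-tolerized Irg1-/- cells (0.75, 0.038) past the threshold, and no member lost its call. DESeq2 size factors moved the median of all genes by at most 0.112, from 0.122 to 0.0105 in tolerized against non-tolerized Irg1-/- cells. Of the reported fold changes of members, 438 values under other alternatives kept their direction and call, 18 gained a call, 9 lost it and 2 changed sign, and of those without single libraries 344, 4, 5 and 1 did. Counts were lowest for Ncoa4 (0 to 54 per library), and the effect of depth was not tested.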
